A study of Homo sapiens with 18 samples.

Results

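The cell cycle and DNA replication genes described here are 57 genes, taken by symbol. The list was drawn up with earlier results of these data known. It holds 24 genes that act around S phase, when DNA is copied, and 33 that act in G2 and mitosis, when the copied chromosomes are separated. Cyclin A2, which works in both phases, stands with the mitotic members. Of the 57, 55 were detected on at least 3 of 18 arrays and were tested among 11600 genes in all. These were 22 of the 24 S-phase members and 33 of the 33 mitotic members. E2F1, a transcription factor that starts S phase, was detected on 1 array, with normalized log2 intensities of 5.07 to 6.1, and CCNE2, a cyclin of the G1/S transition, was detected on 0 arrays, at 4.62 to 4.85. Neither has a measured difference below.

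The arrays were Illumina HT-12 v4 BeadChips, hybridised with RNA from 6 human cell lines of pancreatic cancer at 3 arrays per line. Per the labels, MiaPaCa2, Panc1 and SU8686 resist dasatinib, a kinase inhibitor of SRC family and ABL kinases, and Panc0403, Panc0504 and Panc1005 are sensitive to it. No drug treatment is named in the labels, and the samples carry the names of cell lines, not of tumour tissue. Whether each array held only cells of its line was not tested. Per their codes, the arrays lay on 3 slides of 6: Panc0504 later and Panc0403 earlier on slide 1, SU8686 later and Panc1005 earlier on slide 2, and Panc1 later and MiaPaCa2 earlier on slide 3. Each comparison within a slide was the later line minus the earlier line, in which position on the slide and the name of the line cannot be told apart. Slides 1 and 3 each held lines of a single response.

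A cell commits to division when cyclin-dependent kinases inactivate the retinoblastoma (RB) protein and free E2F transcription factors. E2F factors switch on the S-phase genes: loaders and subunits of the MCM helicase, which license and unwind origins, enzymes that make deoxynucleotides, and the machinery of the replication fork. A later wave is switched on in G2 by FOXM1, B-MYB and the MuvB complex. It supplies mitotic kinases, spindle motors, the kinetochore, the spindle checkpoint and activators of the anaphase-promoting complex (APC/C). When cells leave the cycle, the DREAM complex of MuvB with RB relatives and E2F4 represses both waves. RNA of these genes in a culture follows the share of cells that cycle and their place in the cycle, and in bulk RNA fewer cells in a phase and less RNA per cell cannot be told apart.

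Both waves are known from letters near the start of their genes. The E2F letters searched for were TTCCCGC, with the variant form TTGGCGC and the further form with a CG in its middle, TTCGCGC. MuvB binds the cell cycle homology region (CHR, TTTGAA), often a short way downstream of CCAAT boxes read by NF-Y. Both strands were searched in the 300 bases from 250 before to 50 after the first listed start of each gene (RefSeq, GRCh38.p14). Promoters were at hand for 21 S-phase and 27 mitotic members. Not matched were AURKA, BIRC5, CCNE2, FOXM1, MCM4, MCM5, TPX2, TTK and UBE2C. The E2F letters stood in 16 S-phase members (76.2%) and in 6 mitotic members (22.2%), against 17.7% of the 9322 tested genes with a promoter and 11.2% of all 27305 promoters. The CHR stood in 1 S-phase member, RRM1 (4.76%), and in 19 mitotic members (70.4%), against 9.94% of tested genes and 15.4% of all promoters. CCAAT was found in 12 S-phase (57.1%) and 24 mitotic members (88.9%), against 37.2% and 35.7%. A CHR with a CCAAT in the same window occurred in 1 S-phase member and in 18 mitotic members (66.7%), against 4.3% of tested genes and 6.08% of all promoters. A match is a run of letters and not a shown site, and the search draws nothing about a factor where it found none.

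Stretches of 8 promoters, of 4 S-phase and 4 mitotic members, are printed because these genes recur below. Of the S-phase members, MCM6 and MCM10 were among those of largest difference on slide 1. Of the mitotic members, CCNB2, CDC20 and BUB1 led slide 3 or slide 2 on the probes used. The stretches run 5′ to 3′ on the strand of the gene, with every match on either strand in capitals. Matches on the reverse strand appear in complementary letters, such as ATTGG for an NF-Y box, and matches that overlap share 1 run of capitals. The stretches are chr2:135876444-135876603 (minus strand) for MCM6, the helicase subunit, chr10:13161428-13161557 (plus) for MCM10, which starts the helicase, chr16:88803729-88803788 (plus) for CDT1, the licensing factor, and chr20:5126623-5126722 (minus) for PCNA, the sliding clamp. For the mitotic genes they are chr15:59105016-59105145 (plus) for CCNB2, cyclin B2, chr1:43358861-43358980 (plus) for CDC20, an APC/C activator, chr2:110678064-110678163 (minus) for BUB1, a checkpoint kinase, and chr10:128126424-128126523 (minus) for MKI67, the Ki-67 antigen.
MCM6: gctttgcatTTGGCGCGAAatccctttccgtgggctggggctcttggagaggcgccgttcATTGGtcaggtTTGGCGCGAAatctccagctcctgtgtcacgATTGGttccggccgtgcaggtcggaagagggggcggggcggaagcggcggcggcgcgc
MCM10: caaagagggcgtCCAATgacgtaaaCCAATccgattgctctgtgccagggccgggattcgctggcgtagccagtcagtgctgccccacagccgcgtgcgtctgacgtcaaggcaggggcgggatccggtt
CDT1: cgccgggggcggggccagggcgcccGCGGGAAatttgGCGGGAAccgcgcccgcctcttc
PCNA: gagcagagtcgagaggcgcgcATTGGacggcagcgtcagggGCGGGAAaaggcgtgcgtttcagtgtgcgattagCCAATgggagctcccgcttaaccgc
CCNB2: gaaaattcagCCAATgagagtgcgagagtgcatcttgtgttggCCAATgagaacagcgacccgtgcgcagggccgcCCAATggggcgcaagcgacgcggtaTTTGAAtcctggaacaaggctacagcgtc
CDC20: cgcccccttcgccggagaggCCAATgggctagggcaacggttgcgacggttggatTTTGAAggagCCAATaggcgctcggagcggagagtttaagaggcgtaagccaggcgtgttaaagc
BUB1: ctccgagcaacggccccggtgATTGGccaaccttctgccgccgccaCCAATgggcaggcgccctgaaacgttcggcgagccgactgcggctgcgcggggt
MKI67: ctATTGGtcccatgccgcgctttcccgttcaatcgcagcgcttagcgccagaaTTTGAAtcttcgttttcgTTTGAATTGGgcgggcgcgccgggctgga
The MCM6 stretch held 2 runs in which E2F letters of both strands overlapped, 4 matches in all. CDT1 held 2 E2F matches and PCNA held 1, between CCAAT boxes. MCM10 held 2 CCAAT boxes and no E2F letters in this window. CCNB2 carried 3 CCAAT boxes ahead of 1 CHR, CDC20 a CCAAT box on each side of its CHR, and MKI67 2 CHRs, the later of them overlapping an inverted CCAAT. BUB1 held 2 CCAAT boxes and no CHR.

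The 18 arrays had a median intensity of 110.4 to 135.2, and 31% to 35% of probes were detected on each. Replicate 2 stood apart from replicates 1 and 3 of its own label in all 6 lines. Across the tested genes, which are not independent replicates, r was 0.994 to 0.996 between replicate 1 and replicate 3 of the same label, whereas replicate 2 correlated with them at 0.851 to 0.897 and was nearest to the replicate 2 array of the other line on its slide (0.99, 0.915 and 0.991 on slides 1, 2 and 3). Replicates 1 and 3 of the 2 lines of a slide correlated at 0.964 to 0.983, and replicates 1 and 3 of lines on different slides at 0.745 to 0.89. Replicate 2 of a label was thus farther from its own replicates 1 and 3 than those were from the other line of the slide. CDH2, N-cadherin, had 8.03 to 11.23 on the replicate 2 arrays of the 6 lines, against 4.71 to 4.85 on replicates 1 and 3. CDKN2A, the p16 gene, had 4.72, 4.94, 4.64 and 4.77 on replicate 2 of Panc0403, Panc0504, Panc1005 and SU8686, against 9.66 to 10.76 on their replicates 1 and 3. COL3A1, a fibrillar collagen, had 5.4 and 5.22 on replicate 2 of Panc1 and MiaPaCa2, against 11.03 to 11.14 on their replicates 1 and 3. Replicate 2 may therefore go against its label, and whether it holds the same cells as replicates 1 and 3 was not tested. Replicates 1 and 3 and replicate 2 were therefore kept apart, except in the counts with all 3 replicates and between resistant and sensitive lines. Of 9 ductal epithelial markers, 8 were detected on all arrays of replicates 1 and 3 of Panc0504, Panc0403, SU8686 and Panc1005, but 4 on those of Panc1 and MiaPaCa2, where EPCAM and CDH1 lay between 4.82 and 5.37. On replicate 2 of Panc1 and MiaPaCa2 8 were detected. Each line below stands for the arrays labelled with its name, and the p-values measure the spread between these arrays, for which nothing but the submitters' word "triplicates" says how separately they were grown.

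Median levels over the members are a description with no test. The S-phase and mitotic medians come from different probes, so their gap can be compared between arrays but does not show which wave is higher. On replicates 1 and 3, the S-phase median exceeded the mitotic median by a mean of 0.34 in SU8686, 0.52 in Panc1005, 0.43 in Panc1 and 0.35 in MiaPaCa2. In Panc0403 the mean gap was 0.08, with -0.05 on replicate 1 and 0.2 on replicate 3. Panc0504 alone had a negative mean gap, -1.59. Its S-phase median was 7.93 and 7.91 on replicates 1 and 3 and its mitotic median 9.59 and 9.44. Its replicate 2 had an S-phase median of 10.46 and a mitotic median of 10.16, a gap of 0.30. The lowest mitotic median of all 18 arrays, 7.9, was on replicate 2 of SU8686, whose S-phase median was 8.06, against medians of 11.03 to 11.05 and 10.66 to 10.73 on its replicates 1 and 3. Replicate 2 of Panc1005 had a low S-phase median of 9.11 and a mitotic median of 9.99, a gap of -0.88. The other replicate 2 arrays had medians between 10.47 and 10.71.

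**Figure D1:**
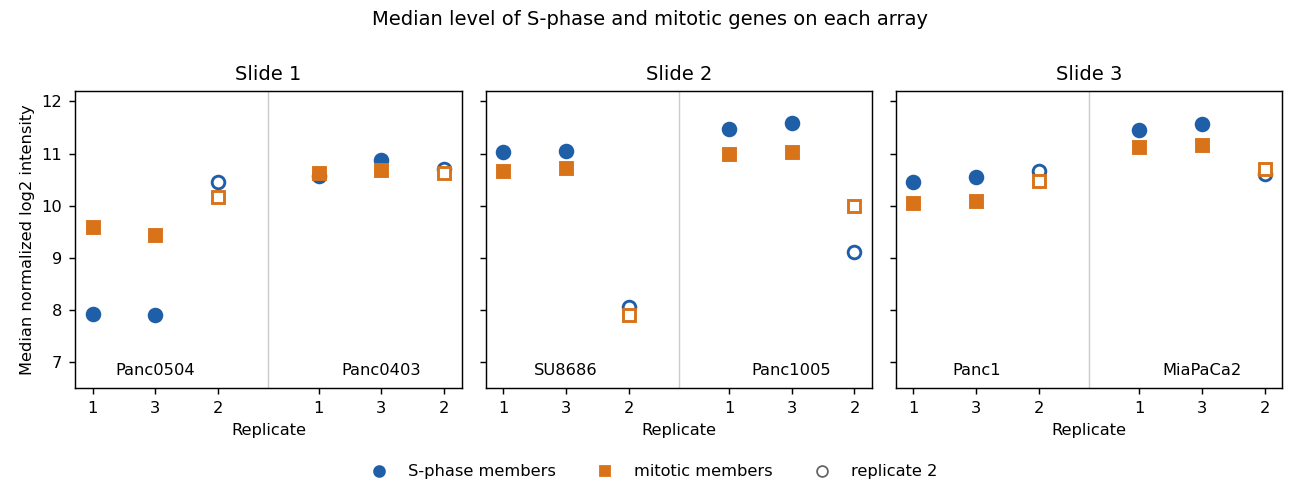
Median normalized log2 intensity of the 22 S-phase members (blue circles) and 33 mitotic members (orange squares) on each of the 18 arrays, by slide and line; open symbols are replicate 2. On replicates 1 and 3 of Panc0504 the S-phase median (7.93 and 7.91) falls below the mitotic median (9.59 and 9.44), and on replicate 2 of SU8686 both medians are low (8.06 and 7.9).

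On replicates 1 and 3 of slide 1, all 55 members fell in Panc0504 relative to Panc0403 (limma, adjusted p under 0.05), where 19.9% of all tested genes fell. The S-phase members fell most, by a median of 2.55 on the log2 scale, a 5.85-fold difference, and the mitotic members by a median of 0.90, a 1.87-fold difference, while the median of all tested genes was 0.02. At a log2 difference of at least 1, 22 of 22 S-phase and 15 of 33 mitotic members were lower, against 3.85% of tested genes. The S-phase members ran from -4.05 to -1.32 and the mitotic members from -1.40 to -0.33, so the ranges met only at MKI67, HMMR and CDC6. With all 3 replicates and the replicate number as a block, 22 members were lower, where 4.88% of tested genes were. For 55 of 55 members both Panc0504 arrays lay below both Panc0403 arrays, as they did for 33.6% of tested genes.

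Origin licensing and the helicase formed the largest S-phase group, 10 genes with a median of -2.83. MCM10, which recruits the polymerase and activates the helicase, had 5.42 and 5.6 on replicates 1 and 3 of Panc0504, against 8.27 and 8.87 in Panc0403. It was not detected on either Panc0504 array, so the difference is given as a bound, at least 5.52-fold lower (adjusted p = 3.1e-06). MCM6 had 8.75 and 8.86 in Panc0504, against 11.89 and 12.16 in Panc0403, a difference of -3.23 (SE 0.10, adjusted p = 1.55e-07). MCM2, another helicase subunit, had 6.83 and 7.24 in Panc0504, against 9.91 and 10.12 in Panc0403 (-2.98, SE 0.14). MCM4 differed by -3.34 and GINS2, a helicase partner, by -3.27. The licensing factors themselves differed least in the group: CDT1 by -1.55 and CDC6, which loads the helicase, by -1.32 (6.17 and 6.21 in Panc0504, against 7.35 and 7.69 in Panc0403).

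Nucleotide supply, with 4 genes, had a median of -2.92. RRM2, the regulated subunit of ribonucleotide reductase, had 6.29 and 5.84 in Panc0504, against 9.9 and 10.33 in Panc0403, a difference of -4.05 (SE 0.20, adjusted p = 6.34e-07). It was detected on 1 of the 2 Panc0504 arrays, where the lowest detected signals were 6.07 and 6.13, so its level there is near the background and the size of the difference is uncertain. TYMS, thymidylate synthase, had 7.95 and 7.69 in Panc0504, against 10.85 and 11.2 in Panc0403 (-3.20, SE 0.14, adjusted p = 3.77e-07). TK1, thymidine kinase, had 9.04 and 8.85 in Panc0504, against 11.47 and 11.68 in Panc0403 (-2.63, SE 0.10). RRM1, the other and more stable reductase subunit, differed less, by -1.51.

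The 7 fork genes had a median of -2.46. UHRF1, which carries DNA methylation over to the new strand, had 7.89 and 7.81 in Panc0504, against 10.84 and 11.17 in Panc0403 (-3.15, SE 0.12, adjusted p = 2.48e-07). PCNA, the clamp that tethers polymerases, had 7.44 and 7.68 in Panc0504, against 10 and 10.04 in Panc0403 (-2.47, SE 0.12). POLE2, a subunit of the leading-strand polymerase, and FEN1, the flap nuclease, differed by -2.65 and -2.46, and the primase subunit PRIM1 and the clamp loader subunit RFC4 by -1.41 and -1.42. CCNE1, cyclin E1, the cyclin that drives entry into S phase, had 6.63 and 6.94 in Panc0504, against 8.49 and 8.86 in Panc0403 (-1.89, SE 0.14). Other detected probes of some S-phase members gave other sizes on slide 1: a further CCNE1 probe differed by -0.21, 2 further MCM7 probes by -0.27 and -3.59, and 2 further RFC3 probes by 0.11 and -2.76, against -1.82 for MCM7 and -2.22 for RFC3 on the probes used. The differences of CCNE1, MCM7 and RFC3 therefore depend on the probe. For PCNA and UHRF1 the other probe gave -1.32 and -1.27, and among the mitotic members that of MAD2L1, a checkpoint protein, gave -0.14, against -1.28 on the probe used.

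The mitotic members fell less and more evenly. In the entry group of 10, with a median of -0.84, CCNB1 (cyclin B1) had 8.03 and 7.98 in Panc0504, against 9.37 and 9.0 in Panc0403 (-1.17, SE 0.13), and CDK1, its kinase, differed by -0.90. CCNA2 differed by -1.14, FOXM1, the factor that activates the mitotic wave, by -1.10, PLK1, the polo-like kinase, by -1.10, and AURKA, the spindle pole kinase, by -0.39. The checkpoint and APC/C group of 7 had a median of -0.78, with CDC20 at -1.02, the checkpoint kinase BUB1B at -0.86, the separase inhibitor PTTG1 at -0.37 and UBE2C, the ubiquitin-conjugating enzyme of the APC/C, at -0.33. UBE2C had 13.39 and 13.29 in Panc0504, against 13.62 and 13.72 in Panc0403, on the probes used the smallest difference of the 55. Its other probe gave -0.74. The chromosome and passenger group of 4, with a median of -1.14, held MKI67, which had 7.18 and 7.23 in Panc0504, against 8.63 and 8.57 in Panc0403 (-1.40, SE 0.11, adjusted p = 1.11e-05). In the same group the survivin gene BIRC5 differed by -1.07 and TOP2A, the topoisomerase that untangles chromosomes, by -0.73. The 12 spindle and kinetochore genes had a median of -1.02, with HMMR at -1.33, the motor KIF20A at -1.24, the kinetochore protein CENPF at -1.11 and KPNA2, an importin that regulates spindle factors, at -0.78. The acinar marker PRSS1 (trypsin 1) was higher in Panc0504 on the same arrays, at 7.22 and 7.19, against 5.4 and 5.2 in Panc0403. Of 6 acinar markers it was the 1 detected on both Panc0504 arrays, and 0 were detected on both Panc0403 arrays; their part in the result was not tested.

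**Figure D2:**
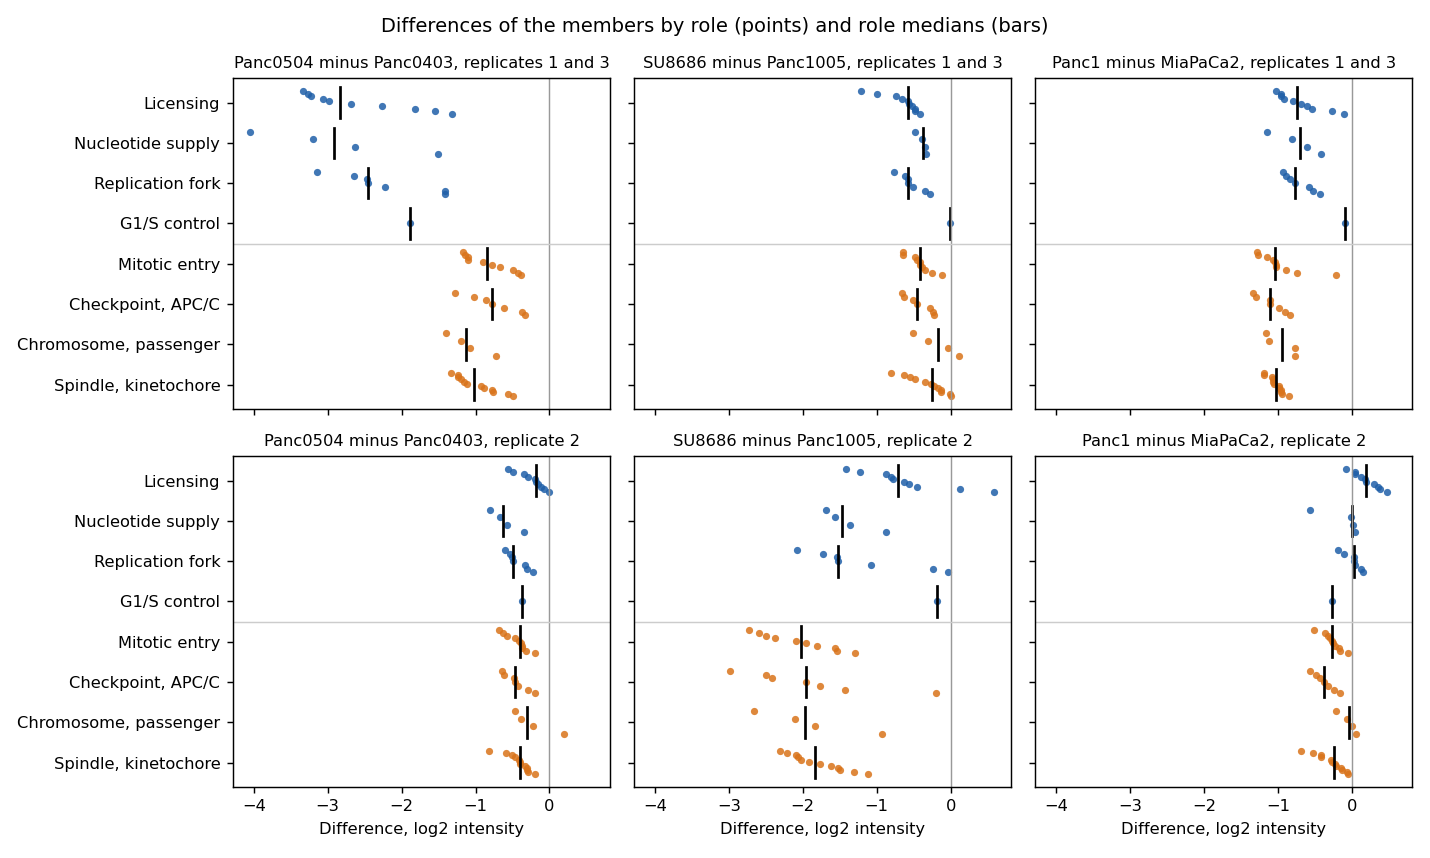
Difference in normalized log2 intensity, later minus earlier line of a slide, of each member (points) and the median of each role (bars), for replicates 1 and 3 in the upper row and replicate 2 in the lower row. The S-phase roles reach medians of -2.92 to -1.89 for Panc0504 minus Panc0403 on replicates 1 and 3, and the mitotic roles reach -2.02 to -1.84 for SU8686 minus Panc1005 on replicate 2.

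The replicate 2 arrays of slide 1 gave smaller differences. RRM2 had 8.82 in Panc0504, against 9.63 in Panc0403 (-0.81, adjusted p = 0.17), and MCM6 had 11.96 in Panc0504, against 12.11 in Panc0403. The members' medians were -0.34 for S-phase and -0.40 for mitotic members. With 1 array per line, taken to vary like replicates 1 and 3, limma called 1 member lower, CDK1 at -0.68 (adjusted p = 0.0459), where 0.586% of tested genes were lower, and 33 members had an unadjusted p under 0.05, as did 17.2% of tested genes. This call was lost without replicate 1 or 3 of Panc0504, MiaPaCa2 or Panc1. The difference between replicates 1 and 3 and replicate 2 was itself tested: Panc0504 minus Panc0403 was lower on replicates 1 and 3 for 33 members, 21 S-phase and 12 mitotic, where 6.1% of tested genes were lower. The S-phase members of largest gap were RRM2 (-3.25, SE 0.34, adjusted p = 0.000592), MCM6 (-3.07), GINS2 (-2.97) and MCM2 (-2.90). CDC6, at -0.76, was the S-phase member not called. For AURKA, KPNA2 and PTTG1 the gap was 0.02, 0.04 and 0.24.

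On replicates 1 and 3 of slide 3, Panc1 minus MiaPaCa2, 50 of 55 members fell, 18 S-phase and 32 mitotic, where 13.7% of tested genes fell. Here the mitotic members had the larger median, -1.04 or 2.06-fold, and the S-phase members -0.73 or 1.66-fold, with a median of all tested genes of -0.01. At a log2 difference of at least 1, 2 S-phase and 19 mitotic members were lower, against 1.22% of tested genes. With all 3 replicates and the replicate number as a block, 0 members passed the threshold, as did 0.0259% of tested genes. For 53 of 55 members both Panc1 arrays lay below both MiaPaCa2 arrays, as they did for 32.8% of tested genes.

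On the probes used, CDC20 led slide 3. It had 12.15 and 12.14 on replicates 1 and 3 of Panc1, against 13.42 and 13.53 in MiaPaCa2 (-1.33, SE 0.09, adjusted p = 1.84e-05). BUB1 had 9.36 and 9.23 in Panc1, against 10.6 and 10.59 in MiaPaCa2 (-1.30, SE 0.10). CCNB1 had 8.65 and 8.62 in Panc1, against 9.99 and 9.82 in MiaPaCa2 (-1.28, SE 0.13). CCNB2 differed by -1.27 (SE 0.08), with 10.78 and 10.82 in Panc1, against 12.12 and 12.02 in MiaPaCa2. UBE2C was the member of smallest difference on slide 1 on the probes used. Here it had 11.88 and 11.89 in Panc1, against 12.99 and 12.97 in MiaPaCa2 (-1.10, SE 0.08, adjusted p = 3.06e-05). PTTG1 (-1.11), BIRC5 (-1.16), FOXM1 (-1.15), HMMR (-1.18), KIF20A (-1.07), KPNA2 (-1.07), CDK1 (-1.04), CCNA2 (-1.03) and PLK1 (-1.03) passed the same size, and CENPF (-0.99), BUB1B (-0.90), CKS1B (-0.89), a CDK cofactor, MKI67 (-0.77), TOP2A (-0.77) and AURKA (-0.74) did not. The 4 mitotic roles had medians of -1.10 for the checkpoint and APC/C, -1.04 for entry, -1.02 for the spindle and -0.94 for chromosomes. Other detected probes gave other sizes on slide 3. BIRC5 was at -1.79, CENPE at -1.61 (-0.99 on the probe used) and HMMR at -1.47, all beyond CDC20, and CKS1B was at -1.14. KPNA2 was at -0.66 and PTTG1 at -0.94, short of a log2 difference of 1. The ranking and the passing of that size therefore depend on the probe for these members.

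Among S-phase members of slide 3, TK1 had 10.28 and 10.27 in Panc1, against 11.36 and 11.47 in MiaPaCa2 (-1.14, SE 0.10, adjusted p = 5.1e-05), and CDT1 had 9.09 and 9.06 in Panc1, against 10.09 and 10.13 in MiaPaCa2 (-1.03, SE 0.10). On the probes used, these were the 2 S-phase members past a log2 difference of 1. Other probes of MCM10 and PRIM1 gave -1.05 and -1.15, against -0.92 and -0.89 on the probes used. PCNA differed by -0.93, MCM10 by -0.92, TYMS by -0.81, MCM2 by -0.80 and UHRF1 by -0.77. The 5 members that were not called were RRM2 (-0.42, adjusted p = 0.144), MCM6 (-0.26, adjusted p = 0.0856), CKS2 (-0.21, adjusted p = 0.153), CDC6 (-0.10, adjusted p = 0.659) and CCNE1 (-0.09, adjusted p = 0.688). RRM2 had 9.51 and 9.71 in Panc1, against 9.97 and 10.08 in MiaPaCa2, and CCNE1 had 9.34 and 9.15 in Panc1, against 9.35 and 9.32 in MiaPaCa2. Of the genes that differed most on slide 1, RRM2 and MCM6 did not pass the test here.

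Limma called 0 members on replicate 2 of slide 3, where 0.353% of tested genes were lower and 1.38% higher, and 13 members had an unadjusted p under 0.05, as did 14.1% of tested genes. The medians were 0.04 for S-phase and -0.25 for mitotic members. The members of largest difference were KPNA2 (-0.69, adjusted p = 0.0974), RRM2 (-0.56) and BUB1B (-0.56). The gap between replicates 1 and 3 and replicate 2 was called for 29 members, 8 S-phase and 21 mitotic, all lower on replicates 1 and 3, where 3.16% of tested genes were lower. CDT1 (-1.33, SE 0.17, adjusted p = 0.00287), MCM2 (-1.16), TK1 (-1.13) and CCNB2 (-1.12) had the largest gaps among those called. That count was 13 without MiaPaCa2 replicate 1, 14 without MiaPaCa2 replicate 3, 17 without Panc1 replicate 1 and 15 without Panc1 replicate 3. The share of all tested genes without these arrays is not given, so a shift of the members cannot be told from a shift of all genes.

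On replicates 1 and 3 of slide 2, which held a line of each response, 35 members fell in SU8686 relative to Panc1005, 18 S-phase and 17 mitotic, where 17.4% of tested genes fell. The differences were small, with medians of -0.52 for S-phase and -0.34 for mitotic members. On the probes used, 2 members, both of the licensing and helicase group, reached a log2 difference of 1, against 1.16% of tested genes. Other probes gave -1.17 for the mitotic member UBE2C, against -0.24 on the probe used, and -0.95 for MCM10. CDC6 had 6.28 and 6.17 in SU8686, against 7.49 and 7.38 in Panc1005 (-1.21, SE 0.14, adjusted p = 0.000172). MCM10 had 8.23 and 8.64 in SU8686, against 9.45 and 9.43 in Panc1005 (-1.0, SE 0.19, adjusted p = 0.00305). All 10 genes of the licensing and helicase group passed the threshold, as did KPNA2 (-0.80) and FEN1 (-0.77). TYMS (-0.33), RRM2 (-0.48), CCNB1 (-0.34), PLK1 (-0.39), HMMR (-0.13), CENPF (-0.13), TOP2A (-0.04), CCNE1 (-0.01), KIF20A (-0.01) and MKI67 (0.12) did not. With all 3 replicates and the replicate number as a block, 14 members were lower, where 10.8% of tested genes were. The monocyte marker CD14, of 7 immune markers measured, of which 3 were detected on both arrays of either line, was bright in SU8686 on the same arrays, 10.19 and 10.14, against 6.92 and 7.07 in Panc1005, and its part in the result was not tested.

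Replicate 2 of slide 2 gave the largest mitotic differences of any comparison within a slide. There 49 members were lower in SU8686 than in Panc1005, 17 S-phase and 32 mitotic, where 23.1% of tested genes were lower, and 31 of the 33 mitotic members passed a log2 difference of 1, as did 10 S-phase members, against 9.35% of tested genes. The mitotic median was -1.95 or 3.85-fold, and the S-phase median -0.88 or 1.84-fold. BUB1 had 6.49 in SU8686, against 9.47 in Panc1005 (-2.98, SE 0.15, adjusted p = 3.69e-07). CKS1B had 10.72 in SU8686, against 13.46 in Panc1005 (-2.73), and AURKB, the kinase of the passenger complex, had 7.84 in SU8686, against 10.5 in Panc1005 (-2.66). CDC20 differed by -2.50, with 10.08 in SU8686, against 12.58 in Panc1005. CDC25C, the phosphatase that activates CDK1, was not detected in SU8686, at least 4.55-fold lower. BUB1B, the 1 mitotic member without a call, was not detected on either array (5.39 in SU8686 and 5.59 in Panc1005). Markers of other cell types and of ductal cells differed on the same arrays: the endothelial marker PECAM1 had 10.07 in SU8686, against 6.52 in Panc1005, HLA-DRA of antigen-presenting cells 12.98 in SU8686, against 11.03 in Panc1005, CD14 9.85 in SU8686, against 7.01 in Panc1005, and the ductal marker MUC1 12.52 in SU8686, against 7.51 in Panc1005. Other markers of the same lists were lower in SU8686 than in Panc1005: KRT7 (12.86 against 13.54), KRT18 (8.97 against 9.61), CDH5 (6.67 against 6.84) and ITGAM (5.1 against 5.92). The mesenchymal markers VIM (10.54 against 12.37) and CDH2 (8.03 against 11.23) were lower too. Of 6 endothelial markers 2 were detected on each of these arrays, and of 7 immune markers 3. Of 9 ductal markers 9 were detected in SU8686 and 8 in Panc1005. Their part in the result was not tested.

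The S-phase members were divided on replicate 2 of slide 2. RFC3, a clamp loader subunit (-2.08), PRIM1 (-1.73), TYMS (-1.68) and TK1 (-1.57) were among those lower. PCNA had 8.06 in SU8686, against 8.09 in Panc1005 (-0.03, adjusted p = 0.901), MCM3, a helicase subunit, 10.8 in SU8686, against 10.67 in Panc1005 (0.13), and POLE2 7.16 in SU8686, against 7.39 in Panc1005 (-0.24), and none of the 3 was called. MCM6 was higher, 9.9 in SU8686, against 9.31 in Panc1005 (0.59, SE 0.15, adjusted p = 0.00738), where 25.1% of tested genes were higher. In the test of the gap, SU8686 minus Panc1005 was higher on replicates 1 and 3 than on replicate 2 for 39 members, 7 S-phase and 32 mitotic, where 16.9% of tested genes were. BUB1 and AURKB (2.36 each), CDC25C (2.34, from a level not detected on replicate 2 of SU8686) and CKS1B (2.25) had the largest gaps, and the gap had the opposite sign for MCM6 (-1.07) and MCM3 (-0.65), where 16.1% of tested genes were lower. That last count of 2 was 1 without Panc0504 replicate 1 or 3, Panc1005 replicate 1, or SU8686 replicate 1 or 3. The share of all tested genes without these arrays is not given.

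**Figure D3:**
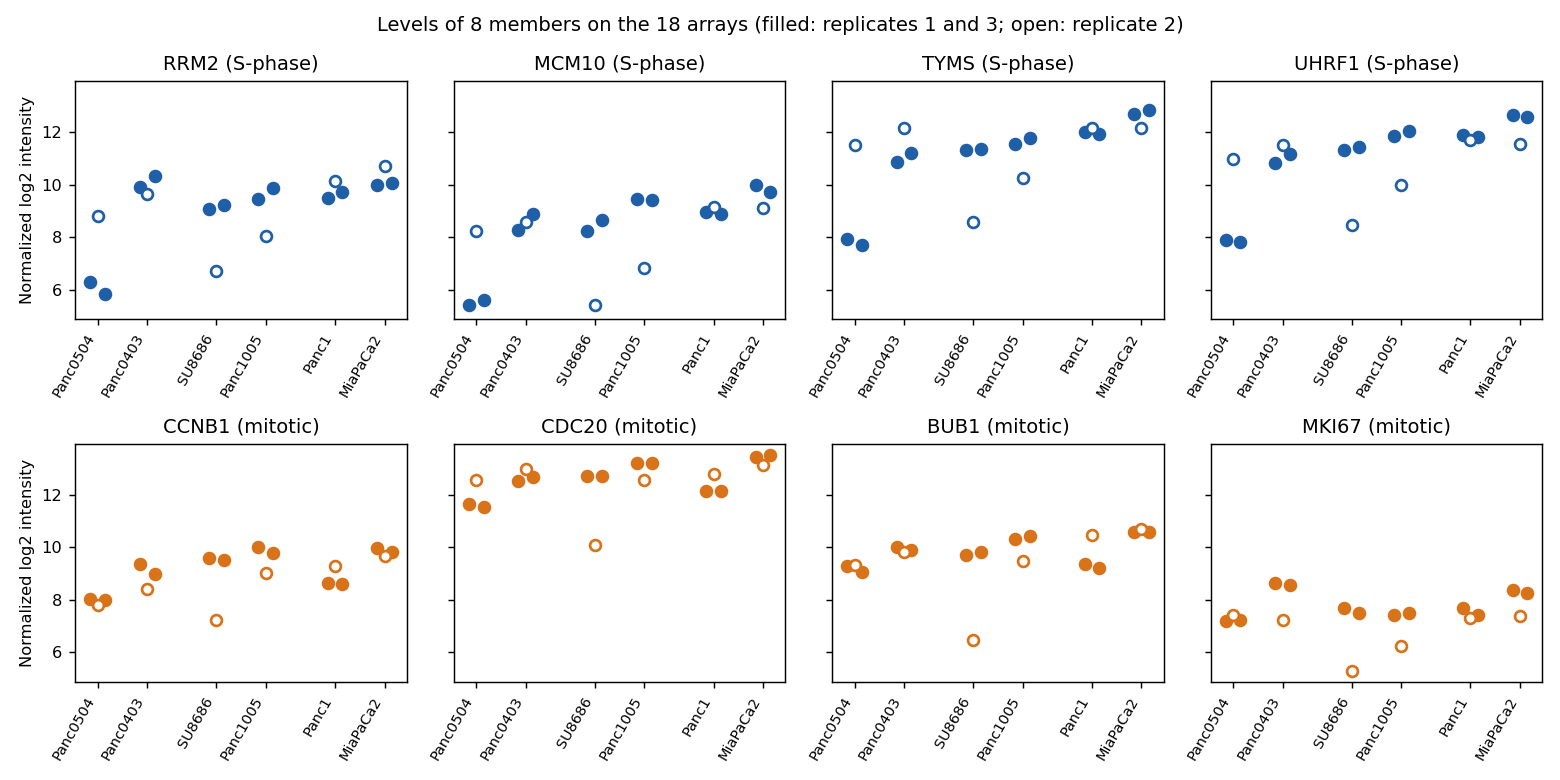
Normalized log2 intensity of 4 S-phase members (upper row) and 4 mitotic members (lower row) on the 18 arrays, by line; filled points are replicates 1 and 3 and open points replicate 2. The S-phase genes are lowest on replicates 1 and 3 of Panc0504 and replicate 2 of SU8686 (RRM2 6.29, 5.84 and 6.7), and the mitotic genes on replicate 2 of SU8686 (BUB1 6.49).

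The within-slide differences of replicates 1 and 3 were then compared with each other, each pair of slides in the same fit. The difference of slide 1 was lower than that of slide 3 for 24 members, 22 S-phase and 2 mitotic (MKI67 and CKS2), and higher for 7 mitotic members, where 13.0% of tested genes were lower and 12.7% higher. The median gap was -1.81 for S-phase and 0.09 for mitotic members. RRM2 was at -3.63 (SE 0.28, adjusted p = 4.04e-05), MCM6 at -2.96, MCM4 at -2.73, and TYMS and UHRF1 at -2.39 each. At the other end stood UBE2C (0.76, SE 0.12, adjusted p = 0.00157), PTTG1 (0.75), CDC25C (0.63), BUB1 (0.52), CCNB2 (0.50), ASPM (0.45) and CENPE (0.43). The 7 of 55 members that were higher are close to the share of all tested genes.

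Slide 1 against slide 2 was lower for 40 members, 21 S-phase and 19 mitotic, where 13.6% of tested genes were, with medians of -1.97 and -0.56. CDC6, at -0.11, was the S-phase member without a call. Slide 3 against slide 2 was lower for 26 members, 3 S-phase and 23 mitotic, where 8.29% of tested genes were. Its medians were -0.21 for S-phase and -0.72 for mitotic members, with CCNB2 (-1.17), KIF20A (-1.06), NUSAP1 (-1.06) and HMMR (-1.05) leading. CDC6 was higher there (1.11, SE 0.20, adjusted p = 0.00578), where 5.68% of tested genes were.

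**Figure D4:**
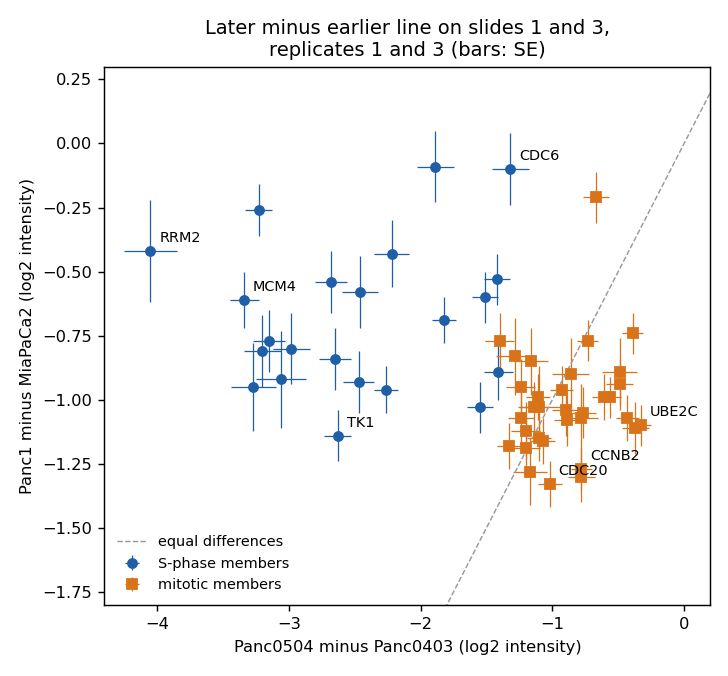
Difference of each member on slide 1 (Panc0504 minus Panc0403, x axis) and on slide 3 (Panc1 minus MiaPaCa2, y axis), replicates 1 and 3, in log2 intensity with SE bars; the dashed line marks equal differences. The S-phase members spread from -4.05 to -1.32 along x, whereas UBE2C and CDC20 reach -1.10 and -1.33 along y.

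Within a label, replicate 2 minus replicates 1 and 3 set the arrays labelled with 1 line against each other, which need not hold the same cells. SU8686 had 55 of 55 members lower on replicate 2, where 31.0% of tested genes were lower, with medians of -2.52 for S-phase and -2.43 for mitotic members, and POLE2 (-3.82), CENPA, the centromere histone (-3.60), and KIF11, a spindle motor (-3.47), led. Panc1005 had 49 lower, 21 S-phase and 28 mitotic, where 31.3% of tested genes were lower, with medians of -1.87 and -0.86; POLE2 (-4.10), MCM6 (-3.21) and MCM4 (-3.11) led. In Panc0504, all 22 S-phase members and 7 mitotic members were higher on replicate 2, where 26.8% of tested genes were higher, and 9 mitotic members were lower, where 28.8% were lower. TYMS (3.66), MCM4 (3.57) and MCM6 (3.16) were higher by the most there, the S-phase median was 2.25, and NUSAP1, a spindle protein (-1.29), UBE2C (-1.01) and TPX2, an activator of AURKA (-0.93), were lower by the most.

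In Panc0403, 20 mitotic members were lower on replicate 2, where 26.3% of tested genes were lower, and 9 members, 7 of them S-phase, were higher, where 23.6% were higher. NUSAP1 (-1.86), MKI67 (-1.36) and CCNB2 (-1.29) were lower and TYMS (1.13) higher by the most, and the 9 became 4 without Panc0403 replicate 1. In Panc1, 28 members were higher, 6 S-phase and 22 mitotic, where 29.3% of tested genes were higher, and 4 were lower, where 28.7% were lower. PRC1, a midzone organiser (1.54), BIRC5 (1.53) and TPX2 (1.5) were higher and RFC3 (-1.74) lower by the most, and the 4 became 2 without Panc1 replicate 1. The shares of all tested genes without Panc0403 replicate 1 or Panc1 replicate 1 are not given. In MiaPaCa2, 28 members were lower, 15 S-phase and 13 mitotic, where 29.2% of tested genes were lower, and 6 were higher, where 27.7% were higher. RFC3 (-1.97), CDT1 (-1.59) and GINS2 (-1.54) were lower and TPX2 (0.82) higher by the most. In Panc0403, Panc1 and MiaPaCa2 the shares of members called were close to those of all tested genes only with lower and higher calls pooled. By direction the shares differed. A larger share of members than of tested genes was lower in Panc0403 and MiaPaCa2, and higher in Panc1. In each of these lines a smaller share of members than of tested genes went the opposite way.

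Over the 6 lines on replicates 1 and 3, limma's F test called 55 of 55 members, where 91.9% of tested genes were called, so that share says little about the members. Between resistant and sensitive lines, compared over 3 line means each, all 3 replicates included, limma called 0 of 55 members and 0.0% of the 11600 genes; 2 members had an unadjusted p under 0.05, as did 18.9% of the genes. The medians were 0.56 for S-phase and -0.10 for mitotic members, and 0.04 for all tested genes. These line means include the replicate 2 arrays, which may go against their label. MCM2 averaged 10.48 in resistant and 9.36 in sensitive lines (1.13, SE 0.70, adjusted p = 0.395), CKS1B differed by -0.98 (SE 0.27, adjusted p = 0.239) and TYMS by 1.12 (SE 0.80, adjusted p = 0.452). The median gap of S-phase over mitotic members was 0.66, and 0.31 without Panc0504, the sensitive line with low S-phase members. With the arrays taken singly and the replicate number as a block, 3 members were called lower in resistant lines, where 16.8% of tested genes were. That count treats arrays of 1 line as independent although response belongs to the line, so it is not a test of response.

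Further genes of the same pathways, from lists by role, were read beside the members, replicates 1 and 3. Of 38 other replication genes measured (42 listed), 32 were lower on slide 1, 27 on slide 2 and 23 on slide 3, where 19.9%, 17.4% and 13.7% of all tested genes were lower. At a log2 difference of at least 1 there were 25, 3 and 2, where 3.85%, 1.16% and 1.22% of all tested genes were lower. Their medians were -1.51, -0.46 and -0.50. On slide 1 the helicase factor CDC45 differed by -3.23 (7.83 in Panc0504, 11.06 in Panc0403, means of 2 arrays) and the histone chaperone subunit CHAF1B by -2.74. On slide 2 TIPIN, a fork protection factor, was at -1.18, and CHAF1A was not detected in SU8686, at least 2.15-fold lower. On slide 3 TIPIN (-1.29) and GMNN, the inhibitor of CDT1 (-1.09), led.

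Of 47 other mitotic genes measured (49 listed), 43 were lower on slide 1, 37 on slide 2 and 44 on slide 3, and 29, 0 and 21 of them passed a log2 difference of 1, against the same shares of all tested genes, with medians of -1.09, -0.43 and -0.97. On slide 1 the largest were kinetochore genes, CENPU, not detected in Panc0504 and at least 6.89-fold lower, and ZWINT (-2.68), which lay within the range of the S-phase members. On slide 3 the centrosome kinase NEK2 (-1.46) and the kinetochore motor KIF2C (-1.40) led. For replicate 2 of slide 2, 44 were lower and 41 passed a log2 difference of 1, where 23.1% and 9.35% of all tested genes did, with a median of -1.72, KIF2C (-2.75) and the cohesion factor CDCA5 (-2.68) among them.

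**Figure D5:**
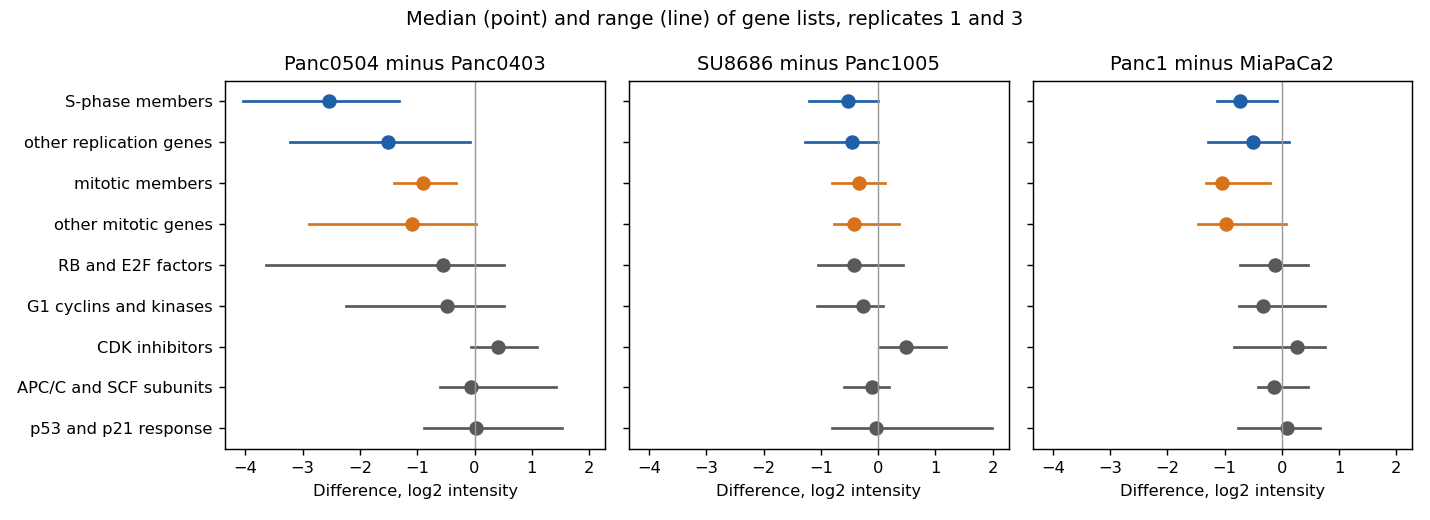
Median (point) and range (line) of the differences in log2 intensity of the S-phase and mitotic members and of 7 further gene lists, later minus earlier line, replicates 1 and 3. Replication genes lie furthest left for Panc0504 minus Panc0403 (medians of -2.55 and -1.51), and the CDK inhibitors have medians above 0 on all 3 slides.

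Upstream of both waves, 16 RB and E2F factors (17 listed) had 10, 9 and 6 lower and 2, 1 and 2 higher on slides 1, 2 and 3, where 19.9%, 17.4% and 13.7% of tested genes were lower and 22.4%, 20.3% and 14.8% higher. E2F2, an activating E2F, was not detected on replicates 1 and 3 of Panc0504 and at least 10.2-fold lower than in Panc0403, and RBL1 (p107), itself an E2F target, at least 3.18-fold lower. On slide 2 E2F8, an E2F that represses, was not detected in SU8686 and at least 1.42-fold lower, and on slide 3 RBL1 was at -0.73. Of 9 G1 cyclins and kinases (10 listed), 5, 4 and 4 were lower and 2, 0 and 1 higher, against the same shares. CDC25A, the phosphatase that activates CDK2, was not detected in Panc0504 and at least 3.42-fold lower, CDK2 was at -1.62 on slide 1, and CCND1 (cyclin D1) was at -0.49 on slide 2 and 0.75 on slide 3. Of 18 APC/C and SCF subunits (19 listed), 6, 4 and 1 were lower and 3, 0 and 0 higher, again against those shares, the largest being the SCF receptor BTRC (1.43) on slide 1.

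Of 6 CDK inhibitors measured (7 listed), 4, 4 and 2 were higher in the later line on slides 1, 2 and 3, and 0, 0 and 1 lower, against the same shares of all tested genes. On slide 1 CDKN1B (p27) and CDKN2D (p19) were at -0.06 and 0.02 and were not called. CDKN2B (p15) averaged 11.34 in Panc0504 and 10.24 in Panc0403 (1.10, SE 0.13, adjusted p = 0.000143), and 9.0 in SU8686 and 7.83 in Panc1005 (1.18, SE 0.13). CDKN1C (p57) was higher by 0.75, 0.74 and 0.76 on the 3 slides, and CDKN1A (p21) by 0.45 on slide 1 and 0.72 on slide 3, while CDKN2D was lower on slide 3 (-0.83). Of 14 genes of the p53 and p21 response (17 listed), 3, 1 and 2 were lower and 3, 3 and 2 higher, shares close to or below those of all tested genes. TP53INP1, a p53 target, was higher on each slide, by 1.53 on slide 1, by at least 2.05-fold on slide 2, where Panc1005 had no detected array, and by 0.66 on slide 3. CCNG2, an atypical cyclin found in resting cells, was higher in SU8686 by at least 2.39-fold. On replicate 2 of slide 2, where the mitotic members were lowest, CDKN1A was itself lower in SU8686 (-1.09), GADD45A, a growth arrest gene, was lower (-3.68), E2F7 was lower (-4.72) and TP53INP1 higher (3.90).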

How the data were processed

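Total RNA of 6 lines, 3 arrays each, was read on 18 Illumina arrays. The labels' protocols give Trizol extraction, RNeasy columns with DNase I treatment and amplification to biotinylated cRNA by Ambion MessageAmp. Per the file headers, the deposited table held a bead intensity and a detection p-value for each of 48107 probes on each array; the scanner's software version is not given in the sources used here. A deposited series matrix held the authors' log2 values of 47323 probes with 13 missing values, in 4 sets of arrays with distinct column medians (6.87 to 7.04), so it served as an alternative only.

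Intensities were background corrected with negative controls inferred from the detection p-values, quantile normalized with an offset of 16 and put on the log2 scale (neqc, limma 3.58.1, R 4.3.3). The offset makes log2 differences of dim genes too small. Probes with a detection p under 0.01 on at least 3 arrays and 1 symbol in the platform annotation were kept (15405), and the brightest probe on average stood for each of the resulting 11600 genes. Several detected probes existed for 28 members, and 0 of these had probes beyond 0.5 in both directions on a slide. Sizes and some signs differed between probes, as for RFC3 on slide 1 (0.11 on a further probe, -2.22 on the probe used). A gene not detected on any array of a group got a bound, the mean of the brighter group against the lowest detected signals.

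Limma fitted 12 means (6 lines by replicates 1 and 3 or replicate 2) with 6 residual degrees of freedom; p-values were Benjamini-Hochberg adjusted over all genes at 0.05. Resistant and sensitive lines were compared on 6 line means. The number of arrays limits the precision. On each slide, arrays with the same replicate number deviated together over all 3 replicates, with correlations of 0.697 to 0.938. Between replicates 1 and 3 alone the correlations were -0.103 to 0.0423. The numbers thus set replicate 2 apart on each slide but do not pair the arrays of replicates 1 and 3. The blocked counts stand beside the results. The members, roles and lists were chosen with earlier results of these data known. Members were named by role, with up to 4 called members of largest difference in each direction and the 2 largest of each list; others (among them MCM3, MCM4, POLE2, PRIM1, RFC3, RFC4, RRM1 and FEN1, MCM7, MAD2L1 and CDKN1B, and the markers PRSS1, CD14, PECAM1, HLA-DRA, MUC1, CDH2, COL3A1 and CDKN2A) were singled out after their values were seen, and the comparisons between slides were added then. Limma was tested on simulated data. Promoters came from RefSeq (GRCh38.p14); Python 3.11.15, pandas 2.3.3, NumPy 2.4.6 and matplotlib 3.10.9 were used. Alternatives were no background correction, an offset of 50, the authors' log2 values, no or a stricter detection filter (9 arrays), the mean over probes, replicate blocks, slide as a block and leaving out each array or line.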

Additional observations from a re-analysis of the deposited data

Results flagged for a closer look

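Replicate 2 of SU8686 was the lowest of the 9 arrays of resistant lines, farther from the rest than Dixon's critical value allows, in the S-phase median (8.06), the mitotic median (7.9) and 18 of the members named by role. These were the S-phase members MCM2 (8.06), MCM10 (5.42), RRM2 (6.7), TYMS (8.59), TK1 (8.54), PCNA (8.06) and UHRF1 (8.45). The mitotic members were CCNA2 (8.61), CCNB1 (7.23), CDK1 (7.41), CDC20 (10.08), UBE2C (10.18), TOP2A (10.29), MKI67 (5.3), KPNA2 (7.15), KIF20A (8.8), CENPF (6.94) and HMMR (7.76). Of 60 groups of arrays checked, chance marks about 1 in 20, and the members share these arrays, so the entries are not independent.

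The difference between the lines of a slide itself differed between replicates 1 and 3 and replicate 2 for 33 members on slide 1 (11.4% of all tested genes), 41 on slide 2 (33.0%) and 29 on slide 3 (5.95%). Between slides, on replicates 1 and 3, it differed for 31 members between slides 1 and 3 (25.7%), 40 between slides 1 and 2 (24.1%) and 27 between slides 3 and 2 (14.0%).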

How the results depend on the processing

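The number of arrays, 2 per line in replicates 1 and 3 and 1 in replicate 2, limits what can be called, and differences of dim genes such as RRM2 in Panc0504 are compressed toward the background. On replicates 1 and 3, members called lower became 22, 14 and 0 on slides 1, 2 and 3 with all 3 replicates and the replicate number as a block. Of all tested genes 4.88%, 10.8% and 0.0259% were lower there. Without the block, with replicate 2 counted as a replicate of its line, the members were 0, 0 and 0. A block over replicates 1 and 3 alone changed no count by over 1.5 times. At a log2 difference of at least 1, 2 members on slide 2 and 21 on slide 3 were lower, against 1.16% and 1.22% of tested genes. The 1 member lower on replicate 2 of slide 1 became 8 without background correction, 7 with an offset of 50, 9 with the authors' log2 values, 0 with no detection filter, 4 at 9 arrays, 3 with the mean over probes and 0 at a log2 difference of 1. The 1 higher on replicate 2 of slide 2 became 0 at that difference, and on slide 3 the 0 lower became 3 without background correction and 2 with the authors' values. In the gap between replicates 1 and 3 and replicate 2, the 2 lower of slide 2 became 1 with no detection filter, and the 29 of slide 3 became 44 both without background correction and with the authors' values. The 4 lower of Panc1 replicate 2 became 7 with the mean over probes. The 0 lower in resistant lines became 3, against 16.8% of tested genes, with arrays in a replicate block, which treats arrays of 1 line as independent. The cause of these shifts was not tested. For most of these settings, and for the arrays left out in the results above and below, the share of all tested genes is not given. A shift of the members there cannot be told from a shift of all genes.

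The S-phase minus mitotic median on slide 1 was -1.65, and -1.24 without background correction, -1.52 with an offset of 50, -1.21 with the authors' values, -1.47 with the mean over probes and -1.02 with all 3 replicates, with or without the block. On slide 2 it was -0.17, and 0.24 with all 3 replicates, with or without the block. On slide 3 it was 0.32, and 0.23 without background correction, 0.28 with an offset of 50, 0.24 with the authors' values, 0.28 with the mean over probes, 0.32 with replicates 1 and 3 as blocks and 0.31 with all 3 replicates, with or without the block.

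Leaving out 1 array at a time gave 52 to 55, 24 to 37 and 48 to 51 members lower on slides 1, 2 and 3, and 0 to 1 on replicate 2 of slide 1. The gap between replicates 1 and 3 and replicate 2 gave 28 to 34 lower on slide 1, 1 to 3 lower and 37 to 39 higher on slide 2, and 13 to 33 lower on slide 3. Replicate 2 against replicates 1 and 3 gave 19 to 21 lower and 4 to 10 higher in Panc0403, 9 to 10 and 28 to 30 in Panc0504, 24 to 29 and 4 to 7 in MiaPaCa2, 2 to 6 and 26 to 28 in Panc1, 45 to 49 lower in Panc1005 and 54 to 55 lower in SU8686. The S-phase minus mitotic medians were -1.83 to -1.57, -0.17 to -0.11 and 0.30 to 0.35 on the 3 slides, and 0.31 to 0.98 between resistant and sensitive lines. Among the members named by role, 3544 values kept their direction and side of the threshold, 161 lost a call, 47 gained one and none was reversed.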
